A study of Mus musculus with 15 samples.

Results

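Glul, which encodes glutamine synthetase, and 7 genes of plasma membrane amino acid transport were followed across dystrophic quadriceps from mice given prednisone daily, prednisone weekly or vehicle. The genes were chosen by name, for their place in glutamine synthesis and neutral amino acid transport: Glul, Slc1a5, Slc38a2, Slc38a4, Slc7a5, Slc7a8, Slc3a2 and Slc36a2. Earlier results of these data were known at that choice, so counts of members beside all genes are a description and not a test. All 8 were found among the 14272 named genes of the deposited table, and all 8 passed the filter on low values that kept 14059 genes for testing (at least 1 CPM, the count scaled to a fixed library total, in at least 5 libraries). All 15 libraries came from the quadriceps of DBA/2J-mdx males, which carry the mdx allele of the dystrophin gene on the DBA/2J background, so treated and vehicle groups alike lack functional dystrophin and no healthy strain is compared here. Mice of the daily group were injected intraperitoneally with prednisone, a synthetic glucocorticoid, at 1 mg/kg on 7 occasions per week. The weekly group had prednisone at 1 mg/kg on 1 occasion and DMSO, the vehicle, on 6 occasions per week. The vehicle group had DMSO on 7 occasions per week. Each group had 5 libraries. The labels give the age as 6 months in the protocol and as about 7 months in the sample fields. Separate animals are not stated for the libraries of a group, so the p-values measure the spread of these samples alone, and that spread may be technical.

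Skeletal muscle makes and releases much of the glutamine in the blood, and glutamine synthetase, which joins ammonia to glutamate, is a classical glucocorticoid-responsive enzyme of muscle. Neutral amino acids enter muscle cells with sodium through carriers such as SNAT2 (Slc38a2) and SNAT4 (Slc38a4), while ASCT2 (Slc1a5), LAT1 (Slc7a5) and LAT2 (Slc7a8) exchange one amino acid for another across the membrane. LAT1 and LAT2 reach the membrane only as partners of the heavy chain encoded by Slc3a2, and leucine carried by such exchangers activates the growth kinase mTOR. Slc36a2 encodes a proton-coupled carrier of glycine, proline and alanine that is also known as a surface marker of brown and beige fat cells.

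The promoters of 4 members whose levels differed between groups are shown because each was called in at least 1 comparison with vehicle and because receptor sites can lie in such sequence. They are the 250 bases before the start site that RefSeq gives on GRCm38.p6, written 5′ to 3′ on the gene's strand. Capitals mark the CCAAT motif and the GC box (GGGCGG, written CCGCCC where it lies on the opposite strand).
Glul promoter, chr1:153899679-153899928, plus strand: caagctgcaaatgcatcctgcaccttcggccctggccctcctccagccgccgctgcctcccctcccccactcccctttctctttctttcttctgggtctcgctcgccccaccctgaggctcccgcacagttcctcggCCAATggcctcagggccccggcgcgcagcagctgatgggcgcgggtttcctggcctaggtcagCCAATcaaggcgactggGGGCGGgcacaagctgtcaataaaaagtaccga
Slc38a2 promoter, chr15:96699729-96699978, minus strand: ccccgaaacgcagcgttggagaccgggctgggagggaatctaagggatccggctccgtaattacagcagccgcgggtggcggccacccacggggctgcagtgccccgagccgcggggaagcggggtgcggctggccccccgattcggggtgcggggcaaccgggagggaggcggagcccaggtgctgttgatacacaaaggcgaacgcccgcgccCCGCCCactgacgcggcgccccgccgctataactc
Slc3a2 promoter, chr19:8713898-8714147, minus strand: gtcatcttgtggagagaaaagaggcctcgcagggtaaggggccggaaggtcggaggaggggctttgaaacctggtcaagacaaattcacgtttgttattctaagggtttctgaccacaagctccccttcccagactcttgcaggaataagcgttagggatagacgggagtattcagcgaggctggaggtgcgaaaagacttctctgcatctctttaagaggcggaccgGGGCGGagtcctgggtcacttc
Slc7a8 promoter, chr14:54781887-54782136, minus strand: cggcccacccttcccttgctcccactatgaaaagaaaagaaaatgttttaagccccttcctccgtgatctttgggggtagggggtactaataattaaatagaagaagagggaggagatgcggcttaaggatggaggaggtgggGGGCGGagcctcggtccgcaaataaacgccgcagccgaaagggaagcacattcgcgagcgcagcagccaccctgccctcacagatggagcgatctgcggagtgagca

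The Glul window held CCAAT at 113 and 50 bases and a GC box at 33 bases before the start site. A GC box lay 35 bases before the start of Slc38a2, 22 bases before that of Slc3a2 and 107 bases before that of Slc7a8. The start used for Slc3a2 lies 9472 bases inside the gene as GENCODE draws it. RefSeq promoters were matched for 5 of the 8 members, in 7 windows of which 3 belong to Slc38a4. The glucocorticoid response element was searched on both strands as AGAACA, 3 free bases and TGTTCT, and occurred in 0 of 7 member windows and in 0.00913% of the 32851 promoters of the same length. Its first arm, AGAACA, lies within that motif and occurred in 1 of 7 windows (a Slc38a4 start), against 16.1% of all promoters. The amino acid response motif TGATGNAA occurred in 0 of 7 windows, against 3.45% of all promoters. CCAAT occurred in 3 of 7 (33.8% of all), GGGCGG in 6 of 7 (32.7% of all) and TATAAA in 1 of 7 (12.4% of all). A match is only a run of letters, and its absence speaks only of these short windows.

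On GRCm38 with the GENCODE M21 annotation, the members are protein-coding genes on 7 chromosomes. Glul spans bases 153899944 to 153909723 of chromosome 1, Slc7a5 bases 121881150 to 121907694 of chromosome 8, Slc3a2 bases 8706882 to 8723369 of chromosome 19, and Slc1a5 bases 16781340 to 16798274 of chromosome 7. Slc7a8 spans bases 54722209 to 54781946 of chromosome 14 and Slc36a2 bases 55158470 to 55185077 of chromosome 11. Slc38a2 (96687392 to 96699730) and Slc38a4 (96994820 to 97055956) are neighbours on chromosome 15, with 295090 bases between them. Glul overlaps Teddm2 and Mir8114, and Slc7a5 overlaps Gm20388. The sources used here do not give the strand setting of the counting, so reads of these overlapping genes could be included.

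Recovered depth ran from 2780768 to 11052552 reads per library, where 3 reads are worth 0.271 to 1.08 CPM. The variation between libraries beyond counting error (biological coefficient of variation) was 9.41% in the daily, 29.4% in the weekly and 3.55% in the vehicle group. In library daily 3, 20.5% of values lay in Gm26924 and 7.79% in Lars2, which lowers every other CPM in that library. Its TMM factor (trimmed mean of M-values, a scaling that removes such shifts) was 0.653, against 0.952 to 1.21 in the other treated and 0.974 to 0.988 in the vehicle libraries. Weekly 4, the shallowest library, had 0.567% of its values in mt-Rnr2 against 6.22% to 9.41% in the other weekly libraries, and its summed fibroblast markers reached 24798 CPM against 2144 to 3160 CPM. The median of all genes moved by -0.08 (daily against vehicle), 0.17 (weekly against vehicle) and -0.24 (daily against weekly) on the log2 scale, and by 0.00, 0.01 and 0.01 under TMM, so TMM values are given beside the deposited scale for members whose call differs, and TMM counts for the gene lists. Fkbp5, a standard glucocorticoid target used as the check of exposure, ranged over 75.6 to 109.5 CPM (daily), 37.4 to 191 CPM (weekly) and 27.4 to 36.5 CPM (vehicle), with weekly 4 the highest. Dmd transcript ranged over 333 to 644 CPM (daily), 222 to 466 CPM (weekly) and 418 to 553 CPM (vehicle). The mdx allele is a point mutation, so this level does not check the genotype.

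Under daily prednisone, 2 of the 8 genes were higher and 0 lower than under vehicle on the deposited scale, where 1.76% of all genes tested were called higher and 2.13% lower (3.89% in all; limma, Benjamini-Hochberg adjusted p under 0.05). The 2 called higher were Slc7a8 and Glul. At an unadjusted p under 0.05 there were 4 members. The share of all genes at that unadjusted threshold was not counted in any comparison, so the unadjusted member counts have no background here. Under TMM, 4 members were higher and 0 lower, with Slc38a2 and Slc7a5 added, where 5.61% of all genes were called higher and 3.47% lower. Under weekly prednisone, 4 members (Glul, Slc3a2, Slc38a2 and Slc36a2) were higher and 0 lower, against 6.99% of all genes called higher and 1.07% lower (8.06% in all), with 6 members at an unadjusted p under 0.05. Under TMM those 4 were again higher and 0 lower, against 5.73% of all genes higher and 4.18% lower. Daily against weekly, 1 member was higher (Slc7a8; 0.484% of all genes were called higher) and 2 were lower (Slc1a5 and Slc36a2; 8.24% of all genes were called lower; 8.73% in all), with 5 members at an unadjusted p under 0.05. The excess of lower calls belongs to the deposited scale: under TMM 2.08% of all genes were called higher and 2.64% lower, with Slc7a8 higher and Slc36a2 lower among the members. The median change of the 8 members was 0.38 for daily against vehicle, 0.77 for weekly against vehicle and -0.35 for daily against weekly, on the deposited log2 scale. Both regimens were set against the same vehicle libraries. On the deposited scale, 0 members had all 5 daily libraries below all vehicle libraries (8.82% of all genes did), 0 had all weekly libraries below all vehicle libraries (1.66% of all genes), and 0 had all daily libraries above (0.235% of all genes) or below (6.98%) all weekly libraries.

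**Figure D1:**
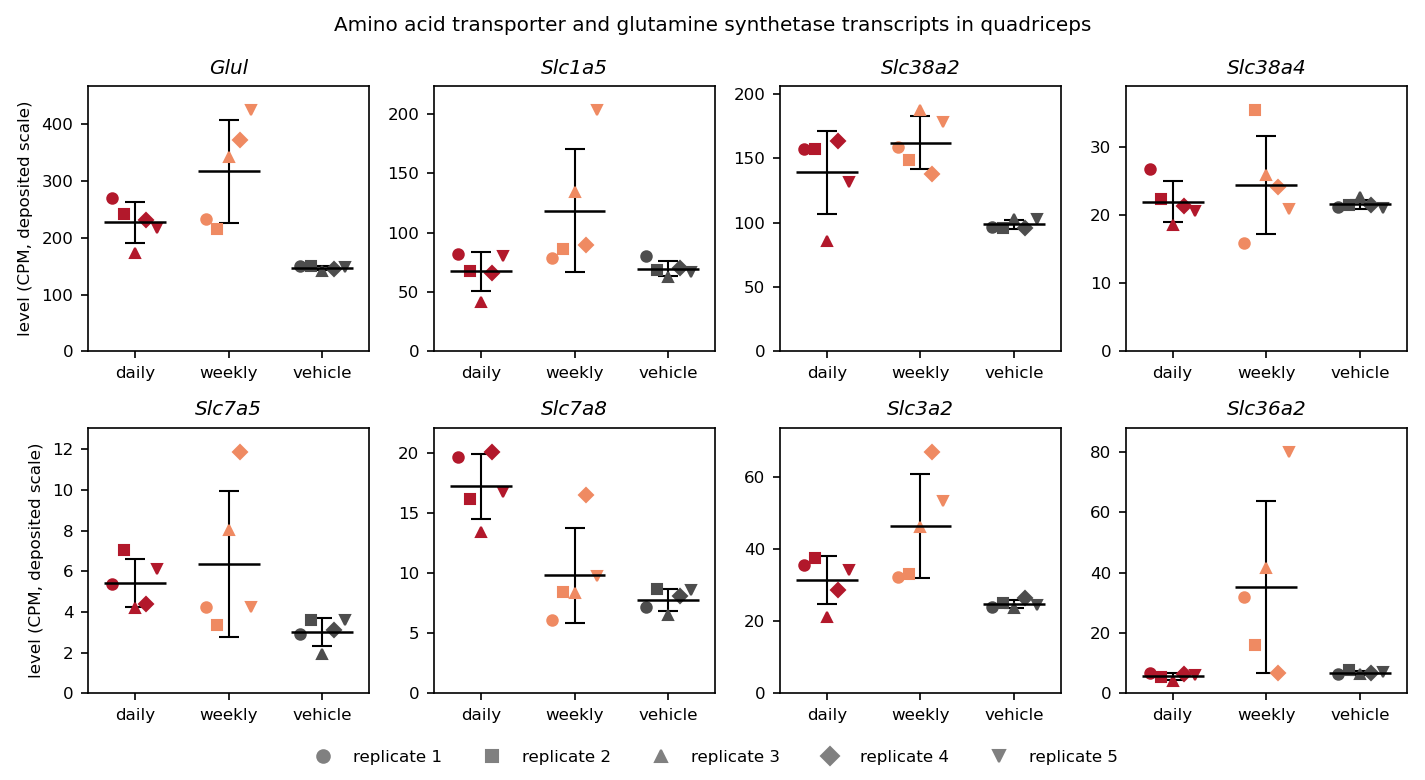
CPM on the deposited scale of the 8 genes in each of the 15 libraries, daily left, weekly in the middle and vehicle right; the symbol gives the replicate, the line the group mean and the bar 1 SD. Slc7a8 was at 13.5 to 20.1 CPM in all daily libraries and at 6.53 to 8.66 CPM in vehicle libraries, while Slc36a2 spread over 6.83 to 79.97 CPM in the weekly group.

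Per kilobase of merged exons, Glul was the most abundant of the 8 transcripts in every group, at 68.2 ± 10.8 CPM per kb in daily, 95.2 ± 27.2 in weekly and 44.2 ± 1.22 in vehicle libraries (SD, n = 5 each). Slc1a5 and Slc38a2 came next in the daily group, at 16.2 ± 3.93 and 15.7 ± 3.65 CPM per kb, which overlapped within their spread. In the vehicle group Slc1a5 was at 16.7 ± 1.60 and Slc38a2 at 11.2 ± 0.395 CPM per kb. The heavy chain Slc3a2 was at 8.90 ± 1.89 CPM per kb in daily, 13.1 ± 4.11 in weekly and 7.02 ± 0.328 in vehicle libraries. Its light chains were lower: Slc7a8 was at 3.44 ± 0.543 (daily), 1.97 ± 0.792 (weekly) and 1.56 ± 0.186 (vehicle). Slc7a5 was the lowest of the 8 by mean level in every group, at 1.46 ± 0.323 (daily), 1.72 ± 0.964 (weekly) and 0.820 ± 0.186 (vehicle) CPM per kb. Slc38a4 lay between, at 5.15 ± 0.708 (daily), 5.73 ± 1.69 (weekly) and 5.06 ± 0.152 (vehicle). Slc36a2 changed its place, at 10.8 ± 8.73 CPM per kb in weekly libraries against 1.76 ± 0.348 in daily and 2.12 ± 0.196 in vehicle libraries.

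Glutamine synthetase mRNA was higher under both regimens. Glul measured 270.1, 242, 173, 232 and 217 CPM in daily replicates 1 to 5, 232, 214, 341, 371 and 424 CPM in weekly replicates 1 to 5, and 150.5, 150.0, 141, 145 and 148 CPM in vehicle replicates 1 to 5. Every treated library lay above every vehicle library, and the ranges of the 2 regimens overlapped. Against vehicle, the level was 2.08-fold higher under weekly prednisone (log2 change 1.06, SE 0.17, limma adjusted p = 0.000454) and 1.53-fold higher under daily prednisone (log2 change 0.61, SE 0.17, limma adjusted p = 0.0428). The daily call was near the threshold: it was lost when any of daily 1, 2, 4 or 5, weekly 3 or any vehicle library was left out (log2 change 0.54 to 0.62, adjusted p 0.0531 to 0.116), and under TMM the change was 0.70 with an adjusted p of 0.00133. Daily against weekly the change was -0.45 (95% interval -0.80 to -0.09, limma adjusted p = 0.0917) on the deposited scale and -0.18 (adjusted p = 0.45) under TMM, so a difference between regimens did not pass the test. It passed without weekly 1 (-0.54, adjusted p = 0.0450) or weekly 2 (-0.57, adjusted p = 0.0284). In bulk tissue, more cells of a type and more RNA per cell cannot be told apart.

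Among the sodium-coupled carriers, Slc38a2 was higher under weekly prednisone and its neighbour Slc38a4 was not called in any comparison. Slc38a2, whose protein is the amino-acid-regulated system A carrier SNAT2, measured 157, 157, 85.8, 164 and 131 CPM in daily, 158, 148, 187, 137 and 178 CPM in weekly, and 96.7, 96.1, 102, 95.7 and 103 CPM in vehicle replicates 1 to 5. All weekly libraries and all daily libraries but daily 3 lay above the vehicle range. The weekly change was 0.70 (SE 0.15, limma adjusted p = 0.00675), or 1.63-fold. The daily change was 0.46 (SE 0.15, limma adjusted p = 0.112) on the deposited scale, and 0.54 (adjusted p = 0.00133) under TMM, where daily 3 read 131 CPM and all 5 daily libraries (131 to 160.2 CPM) lay above the vehicle libraries (97.8 to 105 CPM). Without daily 3 the deposited scale gave 0.62 (adjusted p = 0.00131), and without weekly 4 it gave 0.46 (adjusted p = 0.0255). The change daily against weekly was -0.25 (95% interval -0.57 to 0.07, limma adjusted p = 0.296).

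Slc38a4, which encodes the related carrier SNAT4, measured 26.7, 22.4, 18.6, 21.3 and 20.6 CPM in daily, 15.9, 35.4, 25.9, 24.1 and 20.9 CPM in weekly, and 21.2, 21.4, 22.7, 21.5 and 21.0 CPM in vehicle replicates 1 to 5. The 3 groups overlapped. The interval of the change was -0.34 to 0.37 for daily against vehicle (limma adjusted p = 0.976), -0.22 to 0.48 for weekly against vehicle (adjusted p = 0.672) and -0.47 to 0.24 for daily against weekly (adjusted p = 0.692). The number of Slc38a2 reads per Slc38a4 read, which does not depend on library scaling, was 4.62 to 7.67 in daily, 4.19 to 9.97 in weekly and 4.46 to 4.88 in vehicle libraries.

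Slc1a5, the glutamine exchanger ASCT2, was lower under daily than under weekly prednisone, and neither regimen was called against vehicle in the limma fit of all 15 libraries. It measured 82.4, 68.1, 41.2, 65.7 and 80.1 CPM in daily, 79.0, 86.2, 134, 89.9 and 203 CPM in weekly, and 80.5, 68.6, 62.4, 70.6 and 66.9 CPM in vehicle replicates 1 to 5. Weekly 3 and weekly 5 were the highest libraries, and weekly 1 lay inside the vehicle range. Daily against weekly the log2 change was -0.75 (SE 0.22, limma adjusted p = 0.0354), and under TMM it was -0.49 (adjusted p = 0.145). The call was also lost without daily 3, daily 4, weekly 3 or weekly 5 (-0.75 to -0.53, adjusted p 0.0575 to 0.115). Weekly against vehicle the change was 0.67 (SE 0.22, limma adjusted p = 0.0594), and it was called without daily 3, weekly 1, weekly 2 or weekly 4 (0.67 to 0.79, adjusted p 0.00416 to 0.0334). On recovered reads, edgeR (0.77, adjusted p = 0.0276) and DESeq2 (0.56, adjusted p = 0.0373) called this weekly change too. Under TMM it was 0.49 (limma adjusted p = 0.0965). Daily against vehicle the interval ran from -0.53 to 0.37 (limma adjusted p = 0.892).

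**Figure D2:**
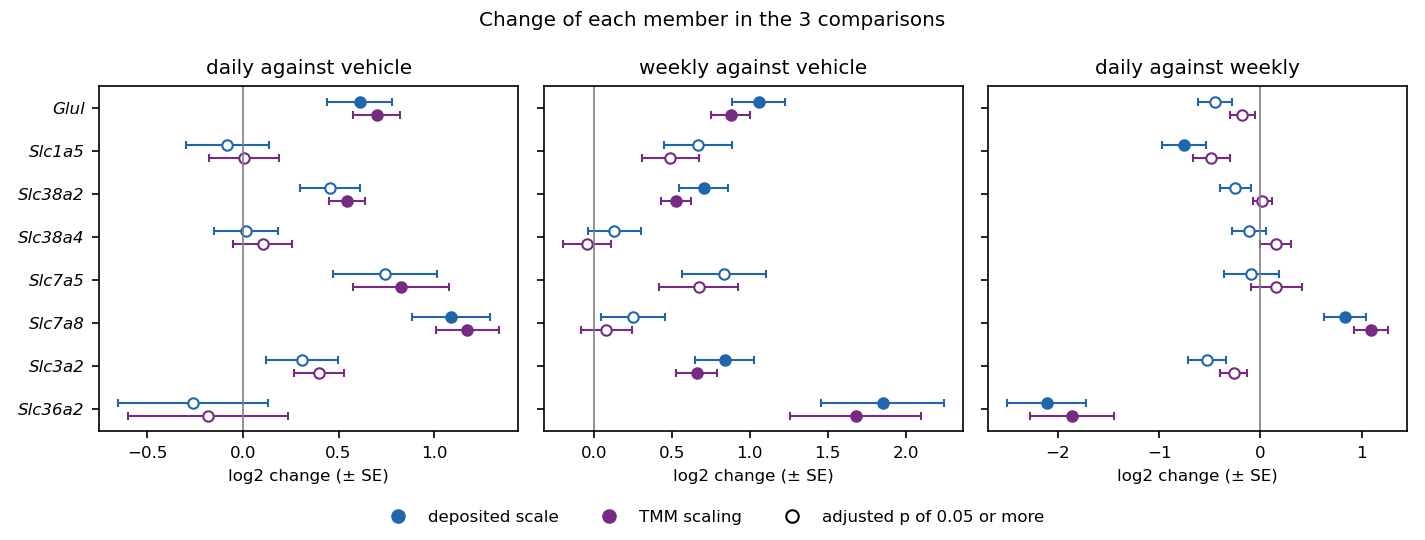
Log2 change of each gene with 1 SE in the 3 comparisons, from the deposited scale (blue) and after TMM scaling (purple); filled points passed an adjusted p of 0.05 over all genes. Slc7a8 was higher in daily libraries against both other groups, and Slc36a2 was higher in weekly libraries against both other groups, under both scalings.

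The light chain Slc7a8 was higher in daily libraries than in both other groups. Slc7a8 measured 19.7, 16.2, 13.5, 20.1 and 16.8 CPM in daily, 6.14, 8.41, 8.36, 16.5 and 9.80 CPM in weekly, and 7.18, 8.66, 6.53, 8.07 and 8.59 CPM in vehicle replicates 1 to 5. All daily libraries exceeded all vehicle libraries (3 members did so, with Glul and Slc7a5, against 2.45% of all genes), and weekly 4 alone of the weekly libraries reached the daily range. The daily level was 2.12-fold that of vehicle (log2 change 1.09, SE 0.20, limma adjusted p = 0.00246) and 1.79-fold that of weekly libraries (log2 change 0.84, SE 0.20, limma adjusted p = 0.0156). Both calls held with each library left out in turn, and the daily against weekly call was lost in a fit of those 2 groups alone (adjusted p = 0.0787) or when vehicle was averaged to 1 sample (adjusted p = 0.0795). Weekly against vehicle the change was 0.25 (95% interval -0.17 to 0.67, limma adjusted p = 0.462), and 0.05 (adjusted p = 0.886) without weekly 4. Without that library the daily against weekly change was 1.03 (adjusted p = 2.56e-05).

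Slc3a2, the heavy chain, was higher under weekly prednisone. It measured 35.7, 37.5, 21.1, 28.7 and 34.1 CPM in daily, 32.3, 33.2, 46.2, 66.9 and 53.3 CPM in weekly, and 23.9, 25.2, 23.7, 26.5 and 24.5 CPM in vehicle replicates 1 to 5. All weekly libraries lay above all vehicle libraries (3 members did so, with Glul and Slc38a2, against 11.8% of all genes), while daily 3 lay below the vehicle range. The weekly change was 0.84 (SE 0.19, limma adjusted p = 0.0074), or 1.79-fold. The daily change was 0.31 (95% interval -0.08 to 0.70, limma adjusted p = 0.426), and 0.40 (adjusted p = 0.0721) under TMM, where all 5 daily libraries lay above the vehicle libraries. The difference daily against weekly was -0.53 (SE 0.19, limma adjusted p = 0.075) and passed only without weekly 1 or weekly 2 (-0.63 to -0.64, adjusted p 0.0334 to 0.0363) among the libraries left out.

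Slc7a5, the LAT1 light chain, rested on few reads. It measured 5.40, 7.06, 4.18, 4.39 and 6.10 CPM in daily libraries (21 to 52 reads), 4.27, 3.35, 8.05, 11.9 and 4.26 CPM in weekly libraries (32 to 80 reads), and 2.92, 3.63, 1.95, 3.10 and 3.62 CPM in vehicle libraries (17 to 32 reads). All daily libraries lay above the vehicle range, and weekly 2 lay inside it. The change was 0.74 for daily against vehicle (SE 0.27, limma adjusted p = 0.146) and 0.83 for weekly against vehicle (SE 0.27, limma adjusted p = 0.0594), neither of which passed. The daily change passed under TMM (0.83, adjusted p = 0.0473) and without weekly 4 (0.74, adjusted p = 0.0161). It also passed with DESeq2 on recovered reads (0.91, adjusted p = 0.0211). The weekly change passed without weekly 1 or weekly 2 (0.93 to 1.01, adjusted p 0.0194 to 0.0407), and was 0.59 (adjusted p = 0.0861) without weekly 4. It passed with edgeR on recovered reads (0.96, adjusted p = 0.0391), and under TMM it was 0.67 (limma adjusted p = 0.0995). Daily against weekly the interval ran from -0.65 to 0.47 (limma adjusted p = 0.86).

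Ratios within a library need no scaling, and the ratio of Slc7a8 to heavy chain reads separated all 3 groups. Slc7a8 reads per Slc3a2 read were 0.550, 0.431, 0.640, 0.701 and 0.492 in daily, 0.190, 0.253, 0.181, 0.247 and 0.184 in weekly, and 0.301, 0.344, 0.275, 0.304 and 0.350 in vehicle replicates 1 to 5. Every daily library lay above, and every weekly library below, every vehicle library, weekly 4 and daily 3 included. The ratio was chosen with the levels in view, so it is a description without a test, and the share of gene pairs that separate so was not counted. Ratios with the other light chain did not separate all 3 groups. Slc3a2 reads per Slc7a5 read were 5.04 to 6.62 in daily, 5.64 to 12.5 in weekly and 6.78 to 12.2 in vehicle libraries. Every daily library thus lay below every vehicle library, and the weekly range overlapped both. Slc7a8 reads per Slc7a5 read were 2.29 to 4.57 in daily, 1.04 to 2.51 in weekly and 2.38 to 3.35 in vehicle libraries.

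Slc36a2 was higher in the weekly group, where its coefficient of variation of 80.6% was the largest of the 8 genes, against 19.7% in the daily and 9.27% in the vehicle group. It measured 6.92, 5.30, 4.03, 6.49 and 5.96 CPM in daily, 32.0, 15.9, 41.7, 6.83 and 79.97 CPM in weekly, and 6.33, 7.84, 6.41, 6.64 and 7.23 CPM in vehicle replicates 1 to 5. Weekly 1, 2, 3 and 5 lay above all other libraries, and weekly 4, with 19 reads, lay inside the vehicle range. The weekly level was 3.61-fold that of vehicle (log2 change 1.85, SE 0.39, limma adjusted p = 0.00488), and the daily level was 0.231 times the weekly level (log2 change -2.11, SE 0.39, limma adjusted p = 0.00232). Without weekly 4 these changes were 2.32 and -2.58. Daily against vehicle the interval ran from -1.07 to 0.55 (limma adjusted p = 0.789).

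The 8 adipocyte markers (Adipoq, Plin1, Cidec, Lep, Retn, Fabp4, Cfd and Lipe) moved with Slc36a2 in the weekly group. Their summed level was 859, 672, 1376, 522 and 2508 CPM in weekly replicates 1 to 5, in the same order of libraries as Slc36a2. It was 152 to 348 CPM in daily and 482 to 519 CPM in vehicle libraries, and no marker was at 0 in any library. Of the 8, 4 were called higher and 0 lower in weekly against vehicle, and 0 higher and 4 lower in daily against vehicle. In daily against weekly 0 were called higher and 7 lower. Of all genes, 6.99% were called higher in weekly against vehicle, 2.13% lower in daily against vehicle and 8.24% lower in daily against weekly. In the daily group the summed markers lay below every vehicle library, while Slc36a2 lay below the lowest vehicle library in daily 2, 3 and 5 and inside the vehicle range in daily 1 and 4. The part of adipocyte RNA in the Slc36a2 result was not tested. Weekly 5, the library with the most adipocyte marker signal, was also the highest for Glul and Slc1a5.

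**Figure D3:**
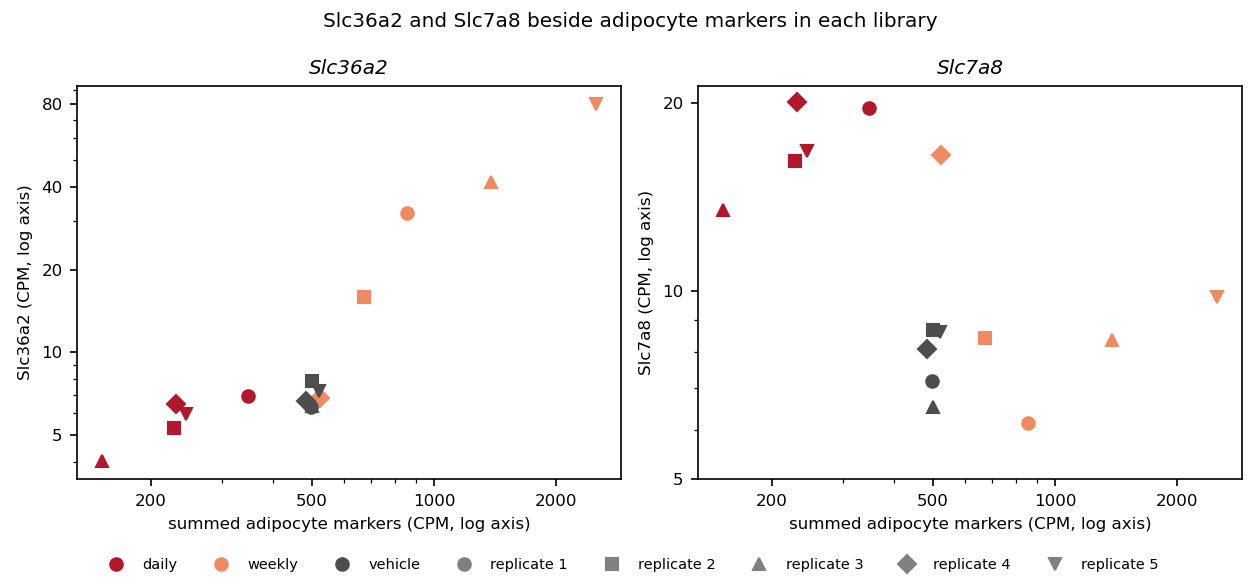
Slc36a2 (left panel) and Slc7a8 (right panel) in CPM against the summed CPM of 8 adipocyte markers in each library, all on log axes. Weekly 1, 2, 3 and 5 run from 15.9 to 79.97 CPM of Slc36a2 at 672 to 2508 CPM of markers, while Slc7a8 was at 13.5 to 20.1 CPM in the daily libraries, which had 152 to 348 CPM of markers.

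Summed levels of other cell type markers varied between libraries too, while few single markers of most types were called. Fibroblast markers had 0 calls in daily against vehicle (median log2 change 0.006), 1 (higher) in weekly against vehicle and 0 in daily against weekly. Macrophage markers had 0 calls against vehicle and 1 (lower) in daily against weekly. Schwann cell markers had 0 calls in any comparison. Summed fibroblast markers (7) were at 2768, 3059, 1983, 3392 and 3568 CPM in daily replicates 1 to 5, 2144, 2502, 3160, 24798 and 3033 CPM in weekly replicates 1 to 5, and 1943 to 2169 CPM in vehicle libraries. All daily libraries but daily 3, and weekly 2, 3, 4 and 5, lay above the vehicle range. Among these weekly libraries Slc7a8 was at 16.5 CPM in weekly 4, and at 8.41, 8.36 and 9.80 CPM in weekly 2, 3 and 5. Summed macrophage markers (8 found) were at 235 to 495 CPM (daily), 169 to 1699 CPM (weekly) and 403 to 438 CPM (vehicle), with the highest value in weekly 4 and the next weekly library at 445 CPM. Endothelial markers (8) were at 145 to 232, 237 to 387 and 229 to 242 CPM in daily, weekly and vehicle libraries. On the deposited scale 5 of them were called lower in daily against weekly, as were 8.24% of all genes. Marker calls were not counted under TMM, where 2.64% of all genes were called lower in that comparison. Muscle fibre markers (13) summed to 47289 to 73885 CPM (daily), 62737 to 104055 CPM (weekly) and 78694 to 81008 CPM (vehicle), so muscle RNA was abundant throughout. Erythroid markers (3 found of 5) were lower in the daily group, at 23.4 to 45.1 CPM, with 43.5 to 78.3 CPM (weekly) and 79.1 to 84.8 CPM (vehicle) in the others. In daily against vehicle 2 of the 3 were called lower, as were 2.13% of all genes. Schwann cell markers (6) were at 53.7 to 87.3 CPM (daily), 58.9 to 94.9 CPM (weekly) and 57.4 to 63.4 CPM (vehicle). Of the listed T cell and liver markers, 0 of 7 and 0 of 4 were matched. Their part in the changes of the 8 genes was not tested. Weekly 4, high in fibroblast and macrophage markers, was the highest library for Slc7a5 and Slc3a2, and it had the highest Slc7a8 and the lowest Slc36a2 of the weekly group.

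Without weekly 4 and daily 3 together, 5 of the 8 genes were called higher in daily against vehicle, 5 higher in weekly against vehicle, and 1 higher and 2 lower in daily against weekly. In the same fit 10.9% of all genes were called higher and 6.29% lower in daily against vehicle, 20.1% and 3.57% in weekly against vehicle, and 2.99% and 11.5% in daily against weekly, so the share over all genes was larger too. Slc3a2 was then higher under the daily regimen too (0.44, limma adjusted p = 0.0165), as were Slc7a5 (0.82, adjusted p = 0.0117), Slc38a2 (0.62, adjusted p = 1.6e-05), Glul (0.70, adjusted p = 0.00106) and Slc7a8 (1.17, adjusted p = 4.63e-06). In weekly against vehicle Slc1a5 joined (0.74, adjusted p = 0.0052). Daily against weekly, Slc7a8 was at 1.12 (adjusted p = 3.42e-05), Slc1a5 at -0.66 (adjusted p = 0.0236) and Slc36a2 at -2.47 (adjusted p = 8.66e-06).

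Genes whose levels ran closest to each member over the 15 libraries were named by the root mean square (rms) difference of centred log2 levels, among 9592 candidates (9593 for Slc7a5) that share the same libraries and scaling. Slc7a8 ran closest to Pld1, a phospholipase D (0.188), and Pag1, a membrane adaptor of Src-family kinases (0.209), against its own rms deviation of 0.551. Pld1 and Pag1 had log2 changes of 1.02 and 1.08 in daily against vehicle, with 0.29 and 0.26 in weekly against vehicle. Values near those of Slc7a8 follow from how the 2 genes were picked. Slc36a2 ran closest to Cdo1, the cysteine dioxygenase (0.299, own deviation 1.17), and to Klhdc7a (0.325). For Glul the closest were Itga3, an integrin chain (0.152), and Rasip1, an endothelial Ras-interacting protein (0.157), and for Slc3a2 they were Rasip1 (0.116) and the transcription factor Stat3 (0.118). Slc1a5 ran closest to Hmgcs1, an enzyme of cholesterol synthesis (0.176), and the laminin chain Lama4 (0.177), and Slc38a2 to Abcc4 (0.120) and Ank2 (0.121). Slc7a5 ran closest to Capn15 (0.261) and Ctgf (0.273), and Slc38a4 to Bcl2 (0.150) and Pgm2 (0.153). Without weekly 4 and daily 3, Pld1 and Pag1 kept ranks 1 and 2 for Slc7a8, and Cdo1 for Slc36a2 and Rasip1 for Slc3a2 kept rank 1, while the other genes named here ranked from 4 to 13. Among the members themselves, Glul and Slc3a2 were closest to each other (0.190), while the nearest member to Slc7a8 was Slc38a2 at 0.565, more than the deviation of Slc7a8 itself.

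Of 38 other amino acid transporter genes, 0 were called higher and 2 lower in daily against vehicle, 4 higher and 2 lower in weekly against vehicle, and 0 higher and 3 lower in daily against weekly. Under TMM the counts were 3 higher and 3 lower, 2 higher and 3 lower, and 1 higher and 1 lower. TMM called 5.61%, 5.73% and 2.08% of all genes higher, and 3.47%, 4.18% and 2.64% lower. Over all genes the shares called on the deposited scale were 3.89%, 8.06% and 8.73% in these comparisons. The list's median changes of -0.09, 0.22 and -0.35 lay near those of all genes. Slc7a2, which encodes a carrier of cationic amino acids such as arginine, fell to 45.7 ± 6.46 CPM in daily and 40.8 ± 10.3 CPM in weekly libraries, against 94.7 ± 1.70 CPM under vehicle (SD, n = 5 each). Its ranges were 34.5 to 50.3 CPM (daily) and 32.4 to 57.2 CPM (weekly) against 92.0 to 96.7 CPM (vehicle). The change was -1.05 for daily (limma adjusted p = 0.000215) and -1.24 for weekly (adjusted p = 2.52e-05). Slc7a10, a small neutral amino acid exchanger, was lower under the daily regimen (-1.25, limma adjusted p = 0.0298). Slc7a1 (0.87, limma adjusted p = 0.00829), Slc38a10 (0.74, adjusted p = 0.0265) and Slc6a17 (0.89, adjusted p = 0.0306) were higher under the weekly regimen, and the lysosomal arginine sensor Slc38a9 was lower (-0.61, adjusted p = 0.0456). Slc25a44, a mitochondrial carrier of branched-chain amino acids, was lower in daily than in weekly libraries (-0.76, limma adjusted p = 0.0044), and so was the glutamate transporter Slc1a3 (-1.12, adjusted p = 0.0143). The calls of Slc7a2, Slc7a1 and Slc25a44 held with each library left out in turn. Those of Slc7a10 (7 libraries; daily 2, 3 and 4 and vehicle 1, 2, 3 and 5), Slc38a10 under the weekly regimen (6 libraries; weekly 5 and each vehicle library), Slc6a17 (6 libraries; weekly 1 and 3 and vehicle 2 to 5) and Slc38a9 (11 libraries; all but daily 3 and weekly 1, 2 and 4) were lost without any of the libraries counted, with adjusted p up to 0.134. Slc1a3 lost its call without daily 3 (adjusted p 0.0584), and Slc1a3 (adjusted p 0.0516) and Slc6a17 (0.0756) lost theirs under TMM. In daily against vehicle Slc7a1 (0.57, limma adjusted p = 0.0132), Slc6a17 (0.85, adjusted p = 0.0442) and Slc38a3 (0.55, adjusted p = 0.0489) were called higher under TMM. The fit of all 15 libraries on the deposited scale called none of them. Slc7a1 and Slc6a17 were also called in the fit of those groups alone, with array weights, with DESeq2 and without weekly 4 and daily 3 together.

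Of 29 enzymes of glutamine, glutamate and asparagine metabolism, 1 was called higher and 0 lower in daily against vehicle, 5 higher and 0 lower in weekly against vehicle, and 0 higher and 7 lower in daily against weekly, against 3.89%, 8.06% and 8.73% of all genes called. Under TMM the counts were 2 higher and 0 lower, 3 higher and 0 lower, and 1 higher and 1 lower. TMM called 5.61%, 5.73% and 2.08% of all genes higher, and 3.47%, 4.18% and 2.64% lower. Prodh, which begins proline breakdown towards glutamate, was at 15.03 ± 2.02 CPM (daily), 12.7 ± 2.73 CPM (weekly) and 7.81 ± 0.969 CPM (vehicle; SD, n = 5 each). It was higher under both regimens (0.90, limma adjusted p = 0.00246 for daily, and 0.65, adjusted p = 0.0194 for weekly), and every treated library lay above every vehicle library. The weekly call was lost without weekly 3, weekly 5, vehicle 1 or vehicle 4 (highest adjusted p = 0.0667). The transaminases Gpt (0.98, limma adjusted p = 0.00246) and Got1 (0.64, adjusted p = 0.0112), which exchange amino groups with glutamate, were higher under weekly prednisone. Gpt was lower in daily than in weekly libraries (-0.81, limma adjusted p = 0.0128), as were Aldh4a1 (-0.93, adjusted p = 0.00951) and Gclm (-0.62, adjusted p = 0.0204), which both lost the call under TMM. Gclm also lost it without daily 5, weekly 3 or weekly 5 (adjusted p up to 0.0641).

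The 33 genes of the amino acid response list belong to the response in which the factor ATF4 acts when amino acids run short. They include Atf4 itself and Eif2ak4, Eif2ak3 and Eif2s1, which act upstream of it. The lists overlap: Slc7a1, Slc7a11 and Asns, each called higher in weekly against vehicle, count here and in a list above. In daily against vehicle 3 were called higher and 0 lower, with 1.76% of all genes called higher. Under TMM they were 4 and 0, with 5.61%. In weekly against vehicle 11 were higher and 0 lower, with 6.99% of all genes called higher. Under TMM they were 8 and 0, with 5.73%. Daily against weekly, 2 were higher and 6 lower, with 0.484% of all genes called higher and 8.24% lower. Under TMM they were 2 and 2, with 2.08% and 2.64%. The list's median was 0.01, 0.36 and -0.41 in these comparisons, where all genes had -0.08, 0.17 and -0.24. Ddit4, an inhibitor of mTOR signalling that is also a direct glucocorticoid target, was at 34.2 to 46.9 CPM in daily libraries, at 9.61, 7.42, 8.66, 87.0 and 11.5 CPM in weekly replicates 1 to 5, and at 3.05 to 4.35 CPM in vehicle libraries. Its change was 3.26 for daily against vehicle (limma adjusted p = 5.06e-05) and 1.78 for weekly against vehicle (adjusted p = 0.00994), or 1.15 without weekly 4. Daily against weekly it was 1.48 (limma adjusted p = 0.0317) and 2.11 without weekly 4. Atf3 was higher under both regimens (1.70, limma adjusted p = 0.000698 for daily, and 1.94, adjusted p = 0.000144 for weekly). Stc2, a secreted glycoprotein, was higher in daily libraries than in vehicle libraries (0.74, limma adjusted p = 0.0289) and weekly libraries (0.66, adjusted p = 0.0353). The tRNA synthetases Gars (-0.62, limma adjusted p = 0.0124) and Mars (-0.63, adjusted p = 0.0221) were lower in daily than in weekly libraries. Calls lost with 1 library left out were those of Ddit4 in daily against weekly (without any daily library, weekly 2, weekly 3 or weekly 5, adjusted p up to 0.0815), Stc2 against vehicle (without daily 1, 4 or 5 or vehicle 2, 3, 4 or 5, up to 0.0899), Stc2 against weekly (without daily 1, 4 or 5 or weekly 5, up to 0.0836) and Mars (without weekly 3, 0.0534).

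Of 43 genes of amino acid sensing and the mTORC1 complex, 0 were called higher and 1 lower in daily against vehicle, 0 higher and 1 lower in weekly against vehicle, and 0 higher and 3 lower in daily against weekly, against 3.89%, 8.06% and 8.73% of all genes called. Under TMM the counts were 1 higher and 3 lower, 0 higher and 4 lower, and 1 higher and 0 lower. TMM called 5.61%, 5.73% and 2.08% of all genes higher, and 3.47%, 4.18% and 2.64% lower. The medians of -0.14, 0.15 and -0.28 lay near those of all genes. Gatsl2, a relative of the arginine sensor Castor1, was at 63.9 ± 9.85 CPM (daily), 69.5 ± 5.97 CPM (weekly) and 91.6 ± 2.84 CPM (vehicle), and fell by 0.53 on the log2 scale under daily prednisone (limma adjusted p = 0.0168). Under weekly prednisone its change was -0.40 (limma adjusted p = 0.0532), and -0.58 (adjusted p = 0.000453) under TMM. Mtor (-0.53, limma adjusted p = 0.0285), Rps6 (-0.62, adjusted p = 0.0243) and Eif4ebp1 (-0.65, adjusted p = 0.025) were lower in daily than in weekly libraries, and none of the 3 passed under TMM. With 1 library left out, Gatsl2 lost its call without daily 5, vehicle 4 or vehicle 5 (adjusted p up to 0.0570), Mtor without daily 5, weekly 3 or weekly 5 (up to 0.0803), Rps6 without weekly 5 (0.0527) and Eif4ebp1 without daily 3, daily 5, weekly 3 or weekly 5 (up to 0.0783).

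**Figure D4:**
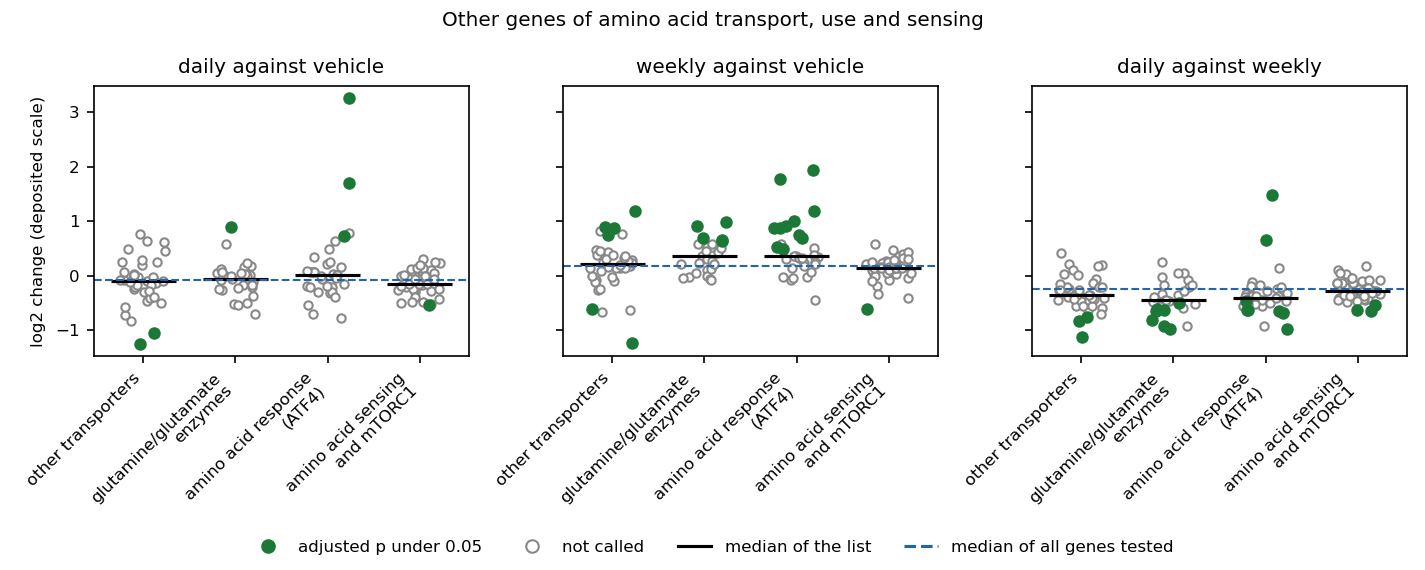
Log2 change on the deposited scale of the genes of 4 lists in the 3 comparisons; filled points passed an adjusted p of 0.05 over all genes, black lines are list medians and dashed lines the median of all genes tested. In weekly against vehicle 11 of 33 amino acid response genes were called higher, as were 6.99% of all genes. Under TMM these were 8 and 5.73%. In daily against vehicle 3 of 33 were called higher, as were 1.76% of all genes. Under TMM these were 4 and 5.61%.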

How the data were processed

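RNA was sequenced from quadriceps in 15 libraries, with 5 in each of 3 groups taken from the labels. Per the submitters' processing notes, TopHat2 2.1.0, mm10 (GRCm38), HTSeq and edgeR were used, and the sources used here do not give the strand setting of HTSeq. The authors deposited 1 table whose values are CPM, although the labels call them RPKM: 222090 of 222090 values were whole reads within 0.01 reads, at 1 step per library for genes of any length. Of 14806 features, 534 without a gene name held 0.276% to 0.447% of the values and were left out, and 9 columns were empty.

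The test was limma 3.58.1 (R 4.3.3) on log2(CPM + 0.5) with its empirical Bayes trend, all 15 libraries in 1 fit with group as its term, and Benjamini-Hochberg adjustment over 14059 genes. Fold changes are on that scale, which understates changes of low genes. Intervals of a change are 95% intervals of the fit. The floor of 3 reads covers counting error only. TMM factors and the count tests on recovered reads used edgeR 4.0.16 and DESeq2 1.42.0; edgeR called 610 genes in daily against vehicle, 1620 in weekly against vehicle and 1464 in daily against weekly. Other alternatives were pseudocounts of 1 and 0.1, no filter, fits of 2 groups, a replicate block, array weights, averaged vehicle libraries and libraries left out. The test was checked on simulated counts, separately for daily against vehicle, weekly against vehicle and daily against weekly. In that order it recovered 22.8%, 42.4% and 47.6% of 1.5-fold changes. Of 2-fold changes it recovered 93.2%, 94.0% and 86.7%. False calls numbered 0, 31 and 51. In the simulation, calls that involve the weekly group thus carried more error, and small daily changes could be missed. The simulated libraries were drawn around vehicle means with a common variation per group, and only genes of at least 5 CPM were changed. Slc7a5, with a vehicle mean of 3.04 CPM, was below that level. The simulation held no shift like that of daily 3 and no outlying library like weekly 4, so its rates need not hold here.

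The members and lists were chosen with earlier results of these data known. Beside the members, the text names the called genes with the 3 smallest p of each list, comparison and direction, and the 2 genes closest to each member among those of at least 5 CPM. Slc38a3 is named for its call under TMM. Positions and exon lengths come from GENCODE M21, and promoters from RefSeq (GRCm38.p6). In motif searches both strands were read.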

Additional observations from a re-analysis of the deposited data

Results flagged for a closer look

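Slc38a4 was highest in vehicle 3, at 22.7 CPM, and the gap to the next vehicle library took 0.736 of the range of that group, from 21.0 to 22.7 CPM. This was 1 of 24 checks of a gene within a group, and chance gives such a gap in about 1 of 20. By the test of daily against weekly libraries (limma, adjusted over all genes), the effects of the regimens differed for 3 of the 8 genes. Over all genes 0.484% were called higher and 8.24% lower (2.08% and 2.64% under TMM). The log2 difference was 0.84 for Slc7a8 (adjusted p = 0.0156), -0.75 for Slc1a5 (adjusted p = 0.0354) and -2.11 for Slc36a2 (adjusted p = 0.00232). The Slc1a5 call was lost under TMM (-0.49, adjusted p = 0.145), with DESeq2 (-0.56, adjusted p = 0.0609), in the fit of those groups alone (adjusted p = 0.133) and without daily 3, daily 4, weekly 3 or weekly 5. The Slc7a8 call was lost in the fit of those groups alone (adjusted p = 0.0787).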

How the results depend on the processing

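With limma on the deposited scale, 547 genes were called in daily against vehicle, 1133 in weekly against vehicle and 1227 in daily against weekly, and 2, 4 and 3 of the 8 members. Leaving out 1 library at a time gave 348 to 1475, 644 to 2253 and 520 to 1882 genes, and 1 to 4, 4 to 6 and 2 to 5 members. These counts of genes moved by over 1.5 times without daily 3 (848), weekly 4 (1475) or any of vehicle 2 to 5 (348 to 354) in daily against vehicle, without daily 3 (2253), weekly 3 (704), weekly 5 (675) or any vehicle library (644 to 684) in weekly against vehicle, and without daily 3 (754), daily 5 (651), weekly 3 (609), weekly 4 (1882) or weekly 5 (520) in daily against weekly. The members called in daily against vehicle were 4 without weekly 4 and 1 without the libraries on which the Glul call rested, and those in daily against weekly were 5 without weekly 1 or weekly 2. For daily against vehicle, the numbers of genes and members called were 1277 and 4 under TMM scaling, 1685 and 4 with only those groups fitted, and 3532 and 5 with array weights. They were 1596 and 5 with DESeq2, 1332 and 4 with edgeR and TMM (an alternative chosen after seeing the data), 2424 and 5 without weekly 4 and daily 3, and 2849 and 5 without them under TMM. For weekly against vehicle, 5690 genes were called with array weights, 1904 with DESeq2, 3329 without weekly 4 and daily 3, and 2398 without them under TMM. For daily against weekly, 663 genes were called under TMM, 747 with edgeR and TMM, 2039 without weekly 4 and daily 3, 3449 (6 members) with array weights and 232 (1 member) in the fit of those groups only. With the vehicle libraries averaged to 1 sample, which is then assumed to vary like the other groups, limma called 3, 7 and 232 genes and 0, 0 and 1 members, with 1, 4 and 5 members at an unadjusted p under 0.05.

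Replicate numbers did not pair the samples: correlations of same-numbered deviations were -0.03 to 0.15, 1 of 15 was over 0.1, and 3 of 15 libraries correlated best with their own number. A replicate block left 494, 1096 and 985 genes and 1, 4 and 3 members called, with Glul in daily against vehicle at an adjusted p of 0.0643. No value changed sign among called results. Other pseudocounts, no filter and edgeR on library totals moved no count by more than 1.5 times. In weekly against vehicle that edgeR fit called 6 members, with Slc7a5 and Slc1a5 added, and edgeR with TMM called 4. Depth limits Slc7a5 (17 to 80 reads per library) and Slc36a2 in weekly 4 (19 reads). All 15 libraries share 1 estimate of spread per gene. The spread of the weekly group, the library weekly 4 and the low scale of daily 3 therefore limit all 3 comparisons. In the fit of daily and vehicle libraries alone, Slc7a5 (0.74, limma adjusted p = 0.00518) and Slc38a2 (0.46, adjusted p = 0.0126) were called higher. The cause of these changes in the counts was not tested.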

Other observations

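The related carriers of cationic amino acids encoded by Slc7a1 and Slc7a2 moved apart in the weekly group. Slc7a1 was at 7.43 to 14.9 CPM (daily), 12.6 to 22.7 CPM (weekly) and 7.91 to 10.5 CPM (vehicle), while Slc7a2 was at 34.5 to 50.3 CPM (daily), 32.4 to 57.2 CPM (weekly) and 92.0 to 96.7 CPM (vehicle). Slc7a1 reads per Slc7a2 read, a ratio that needs no scaling, were 0.215 to 0.319 in daily, 0.220 to 0.611 in weekly and 0.0831 to 0.111 in vehicle libraries. Every treated library lay above every vehicle library, and the regimens overlapped. The ratio was chosen after the values were seen and was not tested, and the share of gene pairs that separate so was not counted.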
